A study of Mus musculus with 12 samples.

Results

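The 10 genes followed here mark melanin-forming cells and the retinal pigment epithelium (RPE), and were measured in explants of the neural retina. They were chosen by symbol, and all 10 were found among the 53707 genes of the table. *Tyr*, *Tyrp1* and *Dct* encode the enzymes that make melanin. *Pmel*, *Mlana*, *Slc45a2* and *Oca2* encode proteins of the melanosome, the organelle in which melanin is laid down. *Ttr* encodes transthyretin, a secreted carrier of thyroid hormone and of retinol-binding protein, *Best1* encodes a chloride channel of the basolateral RPE membrane, and *Mitf* encodes a transcription factor of melanocytes and RPE.

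The explants came from wild-type C57BL/6J mice, a pigmented strain, at postnatal day 28. Per the protocol, the neural retina was freed of the front of the eye and of sclera and RPE before 48 hours of culture in Neurobasal-A medium with 5 mM or 25 mM glucose. Each concentration had 3 biological replicates with 2 technical replicates each, 12 libraries in all, and the first and second technical replicates are batch 1 and batch 2 of the labels, so these cannot be told apart. Nothing states whether a technical replicate is another explant, RNA extract or library of its sample. It is also not stated whether biological replicates came from separate animals, and p-values then measure only the spread between these samples. The libraries held 14815285 to 36692484 estimated counts, and 3 counts in a library correspond to between 0.0818 and 0.202 CPM (the count scaled to library size), a limit of counting alone. The retinal gene *Glul*, of Mueller glia, had a mean level of 213 CPM per kb of exon, while *Rpe65*, the isomerase that defines RPE, had 0.0217.

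Melanin is made from tyrosine inside melanosomes, first by tyrosinase and then by the related enzymes TYRP1 and DCT. In the eye, melanin is made by the RPE, which arises from the optic cup, by the pigmented epithelia of ciliary body and iris, which share that origin, and by melanocytes of the choroid, which come from the neural crest. MITF activates many melanin genes by binding the sequence CATGTG, the M-box core, or CACGTG. The gene has several promoters along its length, the most downstream of which gives the M form of melanocytes, while RPE and other cells use promoters further upstream. The neural retina itself forms no melanin, so the melanin and melanosome genes are read as markers of adjoining tissue. Whether *Ttr*, *Best1* and *Mitf* RNA came from adjoining tissue or from cells of the retina was not tested.

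All 10 are annotated as protein-coding in GRCm38. *Tyr* (ENSMUSG00000004651) lies on the minus strand at chr7:87424771-87493512, and *Oca2* (ENSMUSG00000030450) on the plus strand of the same chromosome at chr7:56239760-56536518. *Tyrp1* (ENSMUSG00000005994) occupies chr4:80834123-80851719 and *Dct* (ENSMUSG00000022129) chr14:118012790-118052244. *Mitf* (ENSMUSG00000035158) spans chr6:97807052-98021349, *Best1* (ENSMUSG00000037418) chr19:9985174-10001633 and *Mlana* (ENSMUSG00000024806) chr19:29697824-29708634. *Slc45a2* (ENSMUSG00000022243) is found at chr15:11000721-11029233. Exons of *Pmel* (ENSMUSG00000025359, chr10:128704195-128720238) overlap those of *Cdk2* and *Dgka* on the opposite strand. Whether counting used the strand is not given in the sources used here, so the *Pmel* values are uncertain.

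RefSeq promoter windows of GRCm38.p6, each 300 bases long, were at hand for 6 of the 10 genes and were searched on both strands for CATGTG. It was found in 4 of these 6 genes, *Tyr*, *Tyrp1*, *Dct* and *Oca2*, which is 4 of their 8 windows, and in 14.2% of all 32851 windows. With a T before it (TCATGTG, a subset of the first), it was found in *Tyr*, *Tyrp1* and *Dct*, 3 of the 8 windows, and in 3.77% of all windows. CACGTG was found in none of the 6 genes and in 7.15% of all windows. The stretches before the first annotated start are shown because these enzymes share the M-box core that MITF binds, and for the 2 *Mitf* promoters because the transcripts described further on start beside them. Capitals mark CATGTG or its reverse complement CACATG, and all are written 5′ to 3′ on the strand of the gene.
Tyr, chr7:87493513-87493762, minus strand: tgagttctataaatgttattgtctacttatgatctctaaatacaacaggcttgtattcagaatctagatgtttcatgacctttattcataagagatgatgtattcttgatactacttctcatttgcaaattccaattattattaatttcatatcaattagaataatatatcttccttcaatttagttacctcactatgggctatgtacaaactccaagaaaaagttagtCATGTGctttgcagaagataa
Dct, chr14:118052247-118052496, minus strand: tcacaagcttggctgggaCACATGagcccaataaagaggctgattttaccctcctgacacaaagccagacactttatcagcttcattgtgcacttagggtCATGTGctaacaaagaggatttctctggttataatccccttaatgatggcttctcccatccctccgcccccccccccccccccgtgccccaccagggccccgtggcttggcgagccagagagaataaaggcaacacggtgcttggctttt
Tyrp1, chr4:80834155-80834184, plus strand: tggggagggagtCATGTGctgcctagtagt
Oca2, chr7:56239561-56239590, plus strand: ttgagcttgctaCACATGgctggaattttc
Mitf, most upstream promoter, chr6:97806808-97807051, plus strand: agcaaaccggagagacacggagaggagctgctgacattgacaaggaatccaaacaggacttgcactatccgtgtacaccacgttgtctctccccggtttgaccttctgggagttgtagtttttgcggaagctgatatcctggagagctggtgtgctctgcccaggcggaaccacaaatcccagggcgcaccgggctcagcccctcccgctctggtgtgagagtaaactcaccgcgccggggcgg
Mitf, most downstream promoter, chr6:97991533-97991782, plus strand: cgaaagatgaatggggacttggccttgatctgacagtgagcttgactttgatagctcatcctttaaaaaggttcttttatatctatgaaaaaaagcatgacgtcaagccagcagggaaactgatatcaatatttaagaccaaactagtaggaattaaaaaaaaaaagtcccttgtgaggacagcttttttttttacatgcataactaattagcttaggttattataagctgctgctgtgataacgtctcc
The match begins 21 bases before the RefSeq start of *Tyr*, 46 before that of *Tyrp1* and 186 before that of *Oca2*, and *Dct* holds 2, at 232 and 150 bases. The *Tyrp1* match lies downstream of the start that GENCODE gives for 1 of its transcripts, and for that gene and *Oca2* 30 bases are shown. No match was in the windows of *Mitf* and *Best1*. A match of letters is a description and not a binding site.

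The 10 genes were all low beside retinal genes. Divided by exon length and averaged over the 6 biological replicates, *Mitf* was highest with 1.55 CPM per kb, followed by *Ttr* with 1.06, *Dct* with 0.403, *Tyrp1* with 0.201, *Best1* with 0.151 and *Pmel* with 0.116. *Oca2* (0.0551), *Tyr* (0.0548), *Mlana* (0.0462) and *Slc45a2* (0.0171) were lower still. The ranges over the 6 replicates overlapped for every pair of neighbours in this order. In 5 of the 10 genes no library reached 1 CPM, and 3 genes had at least 1 library listed at 0.

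The main comparison asked whether the level of these genes differed between the glucose concentrations, with technical replicates summed. A total of 7 genes passed the filter on low counts, which *Pmel*, *Mlana* and *Slc45a2* did not. When p-values of the edgeR quasi-likelihood test were adjusted by Benjamini-Hochberg, 0 of the 7 genes were called at under 0.05, against 1.98% of the 21061 genes tested. At an unadjusted p under 0.05 there were 2, *Tyrp1* and *Mitf*, against 28.7% of all genes. DESeq2 called those 2, and 16.6% of all genes, and limma-voom called 0 of the 7 and 1.98% of all genes. The log2 fold change of 25 mM against 5 mM was below 0 in 6 of the 7 and above 0 in *Oca2*, and it was below 0 in 50.7% of all genes. Its median was -0.75 over the 7 genes and -0.01 over all genes. Biological replicates did not overlap in 3 of the 7, *Tyrp1*, *Dct* and *Mitf*, and in 31.8% of all genes. For each of the 3 genes the exact two-sided permutation test gave p = 0.1, the smallest that 3 against 3 can give. Replicates that do not overlap always give this value, so it adds nothing to the lack of overlap. A lower level here may be fewer cells of a type or less RNA per cell, which cannot be told apart in bulk samples.

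**Figure D1:**
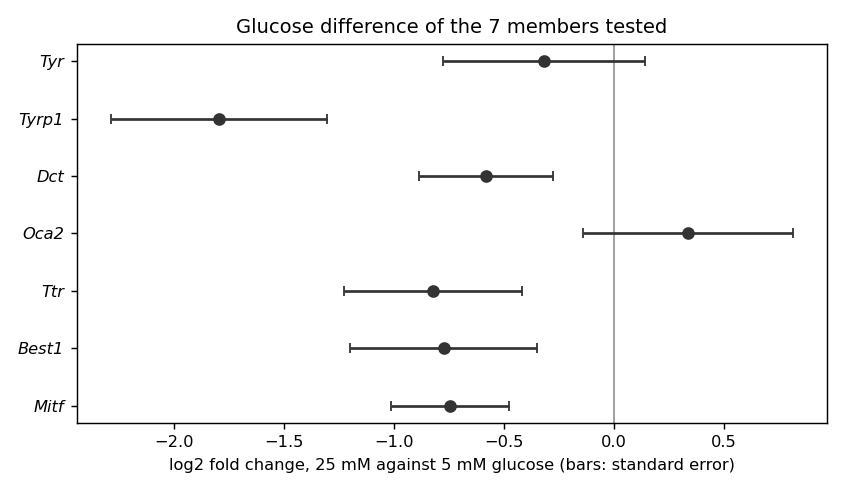
Log2 fold change of 25 mM against 5 mM glucose for the 7 genes that passed the filter, with points for the estimate of edgeR and bars for 1 standard error (n = 3 against 3). *Tyrp1* lies lowest at -1.80, and *Oca2* at 0.34 is the gene above 0.

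*Tyr*, which encodes the enzyme of the first step, had 0.542, 0.271 and 0.489 CPM in the 3 replicates at 5 mM glucose and 0.371, 0.191 and 0.474 CPM at 25 mM. Means were 0.434 ± 0.143 and 0.345 ± 0.143 CPM (SD, n = 3), and the replicates overlapped. A log2 fold change of -0.32 was fitted (SE 0.46, edgeR adjusted p = 0.663). Its sign turned to 0.18 without the first library of 5 mM replicate 3 and to 0.27 when transcript counts were summed. That library held 0.966 CPM of *Tyr*, the highest value, and the second library of the same replicate 0.0375 CPM, the lowest. In the former the estimated gene count was 21.9, but the *Tyr* transcripts summed to 13.2, of which the coding Tyr-201 had 6.56. The ratio of gene count to transcript sum was 1.67 there, against a median of 0.909 over the 12 libraries.

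*Tyrp1*, whose product stabilises tyrosinase and oxidises a later intermediate, had the largest difference of the 7 tested genes. The 3 replicates held 1.23, 0.475 and 0.957 CPM at 5 mM and 0.278, 0.137 and 0.339 CPM at 25 mM glucose. Every replicate at 25 mM lay below every one at 5 mM, although the single libraries overlapped, with 0.345 to 2.06 CPM (median 0.534) at 5 mM and 0.0621 to 0.477 (median 0.239) at 25 mM. The log2 fold change was -1.80 (SE 0.49, unadjusted p = 0.0061, edgeR adjusted p = 0.075). Over the alternatives the log2 fold change lay between -2.10 and -1.26 and the adjusted p between 0.0176 and 0.240. The highest library, the second of 5 mM replicate 1, held an estimated gene count of 48.6, but its *Tyrp1* transcripts summed to 16, a ratio of 3.04 against a median of 0.915 over the 12 libraries. Without that library the log2 fold change was -1.41 (adjusted p = 0.0925), and from transcript sums it was -1.40 (adjusted p = 0.103). What sets the gene and transcript estimates apart was not tested.

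*Dct*, the tautomerase that acts before TYRP1, was the most abundant of the 7 melanin and melanosome genes per kilobase. Replicates held 2.53, 2.17 and 3.85 CPM at 5 mM and 2.02, 1.70 and 1.99 CPM at 25 mM glucose, which did not overlap, and the log2 fold change was -0.58 (SE 0.30, edgeR adjusted p = 0.239). Of the 5 mM libraries, the first of replicate 3 stood out with 6.97 CPM, while the other library of that replicate had 0.909 CPM, the lowest of all 12. Leaving out the former brought the difference on the log2 scale to 0.0065 (adjusted p = 0.994).

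Most of the *Dct* transcript count was assigned to a segment of an intron and not to the coding transcript. The transcript Dct-204, annotated as a retained intron at chr14:118024077-118027535, took 66.9% of the transcript counts. Its 3459 bases lie wholly inside the intron of 15444 bases between exons 6 and 7 of the 8 exons of the coding transcript Dct-201, and share no base with these exons. Dct-204 had estimated counts of 24.3 to 52.6 at 5 mM and 21.4 to 38.9 at 25 mM glucose, and its level lay between 0.895 and 2.80 CPM in the 12 libraries. Dct-201 ranged more widely, from 0 to 4.14 CPM, with 3, 25.1, 19.3, 6.14, 94.0 and 2 counts in the 5 mM libraries and 6, 0, 0, 2, 3 and 14 at 25 mM, in order of replicate and then technical replicate. The coding transcript thus made up 38.9% of the *Dct* transcript counts at 5 mM and 11.03% at 25 mM, with the library of 94.0 counts holding most of the former. Counting the protein-coding transcript alone, an alternative chosen after seeing the data, gave a log2 fold change of -2.23 (SE 0.80, edgeR adjusted p = 0.155).

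**Figure D2:**
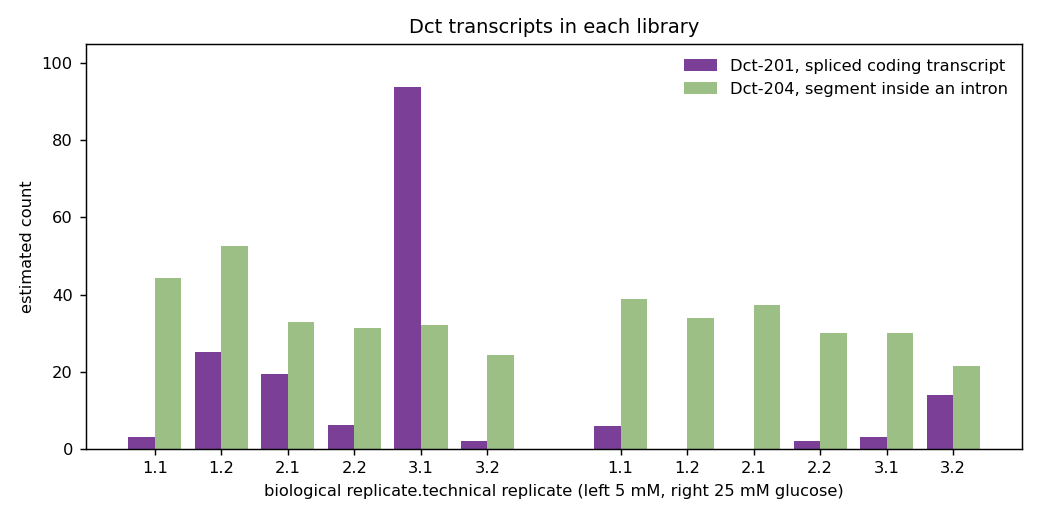
Estimated counts of the coding transcript Dct-201 and of the intronic segment Dct-204 in each of the 12 libraries, labelled by biological and technical replicate. Dct-204 stays between 21.4 and 52.6, while Dct-201 runs from 0 to 94.0.

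The melanosome genes were sparser. *Pmel*, which forms the fibrils on which melanin is deposited, had 0.289, 0.791 and 0.149 CPM at 5 mM and 0.185, 0.0273 and 0.158 CPM at 25 mM glucose, and the replicates overlapped. With no filter on low counts its log2 fold change was -1.68 (SE 0.72, edgeR adjusted p = 0.191). *Mlana*, a small membrane protein of early melanosomes, summed to 11.3 estimated counts over the 6 libraries at 5 mM and 3.03 over those at 25 mM, where 3 libraries were at 0. *Slc45a2*, a transporter thought to help keep the melanosome lumen near neutral, had 7.04 and 6.94 counts, with 3 libraries at 0 at 5 mM and 2 at 25 mM. The lowest *Mlana* replicate at 5 mM had 0.04522 CPM and the highest at 25 mM 0.04518 CPM, so its replicates only just did not overlap. Such few counts cannot decide whether *Mlana* or *Slc45a2* differed.

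*Oca2*, which encodes a melanosome membrane protein needed for its chloride conductance, was the 1 tested gene with a higher mean at 25 mM glucose. Replicates had 0.144, 0.136 and 0.298 CPM at 5 mM and 0.278, 0.273 and 0.181 CPM at 25 mM, which overlapped, for a log2 fold change of 0.34 (SE 0.48, edgeR adjusted p = 0.661). The transcript Oca2-203, annotated as a target of nonsense-mediated decay, took 78.4% of the *Oca2* transcript counts, and Oca2-201, which codes for the full protein, 21.6%. These shares rest on 47.0 and 13.0 estimated counts over the 12 libraries, and Oca2-201 was above 0 in only 2 of them. In *Tyr*, the coding transcript Tyr-201 held 92.4%, or 90.2 estimated counts.

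Of the RPE genes, *Ttr* (ENSMUSG00000061808), on chromosome 18, has 1 transcript, and its replicates had 0.975, 1.61 and 2.25 CPM at 5 mM and 0.811, 0.656 and 1.24 CPM at 25 mM glucose. The first replicate at 5 mM lay within the range at 25 mM. Means were 1.61 ± 0.639 and 0.903 ± 0.304 CPM (SD, n = 3), and the log2 fold change was -0.83 (SE 0.41, edgeR adjusted p = 0.215). In 5 mM replicate 3, *Ttr* was highest in the second library (3.06 CPM) and not in the first (1.34 CPM), the reverse of *Tyr*, *Tyrp1*, *Dct* and *Oca2*.

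*Best1* replicates had 0.361, 0.588 and 0.531 CPM at 5 mM and 0.324, 0.164 and 0.361 CPM at 25 mM glucose. The log2 fold change was -0.78 (SE 0.43, edgeR adjusted p = 0.260), with the first 5 mM replicate level with the third at 25 mM. No library held more than 15.3 estimated counts of this gene.

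*Mitf* was the 1 gene of the 10 above 5 CPM in all libraries. Replicates had 11.9, 12.7 and 11.6 CPM at 5 mM and 5.88, 9.68 and 6.01 CPM at 25 mM glucose, which did not overlap. Means were 12.1 ± 0.534 and 7.19 ± 2.16 CPM (SD, n = 3), at a log2 fold change of -0.75 (SE 0.27, unadjusted p = 0.0236, edgeR adjusted p = 0.123). Technical replicates were also read apart. The first libraries held 14.6 to 16.0 CPM at 5 mM and 5.37 to 8.52 CPM at 25 mM, with no overlap and a log2 fold change of -1.20 (edgeR adjusted p = 0.0269 in batch 1 alone, where 17.3% of all genes were called). The second libraries held 7.47 to 9.71 and 5.79 to 10.7 CPM, which overlapped, and their log2 fold change was -0.11 (adjusted p = 0.896), in a batch where 0% of genes were called. The interaction of glucose and technical replicate, which tests whether the batches differ in this, did not pass adjustment, with 1.05 on the log2 scale (SE 0.32, unadjusted p = 0.0116, adjusted p = 0.216). At an unadjusted p under 0.05 the interaction picked out 16.3% of all 18725 genes tested, and at an adjusted p under 0.05 it called 0%.

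*Mitf* transcripts were grouped by where they start. The 3 that start at the most upstream promoter, between 97807052 and 97807058 on chromosome 6, held 91.6% of the transcript counts, nearly all of it in Mitf-202 (91.1%). The 3 that start at 97991792 to 97991921, where the melanocyte form begins, held 7.71%, and those in between 0.744%. The upstream share was 90.6% at 5 mM and 93.5% at 25 mM glucose and lay between 82.3% and 96.9% in single libraries. The downstream share was 8.63% and 5.91%, with 1.73% to 17.7% in single libraries. The upstream start thus led in all 12 libraries and at both concentrations. These shares rest on estimates that divide reads of shared exons.

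**Figure D3:**
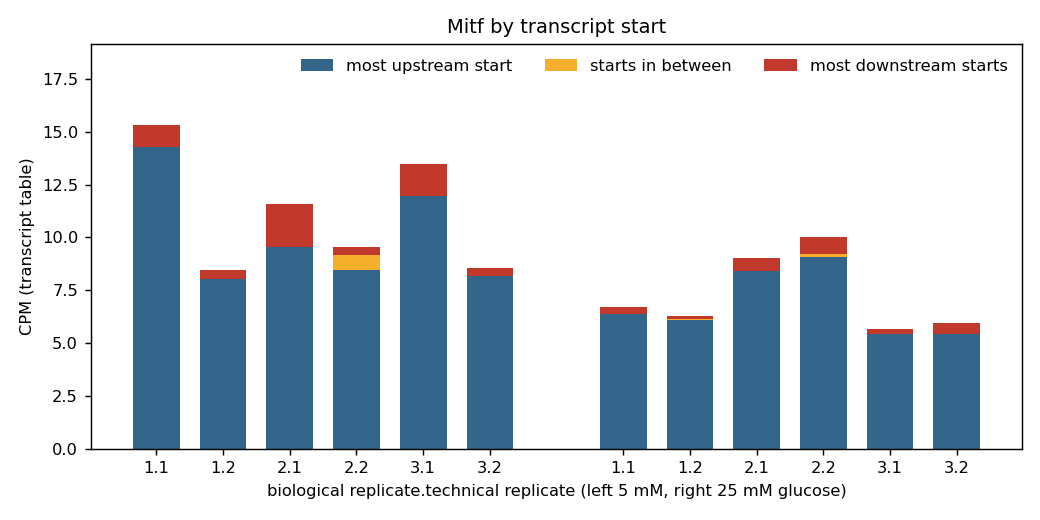
Levels of *Mitf* transcripts in CPM of the transcript table, stacked by start group, in each library labelled by biological and technical replicate. The upstream start makes up 82.3% to 96.9% of every bar, and the first 5 mM libraries are the tallest of their pairs.

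The second comparison set the second technical replicate of each biological replicate against the first. With biological replicate as a block, 4 of the 10 genes passed the filter, and the edgeR quasi-likelihood test called 0 of them and 0% of the 18725 genes tested, with an unadjusted p under 0.05 in 0 of the 4 and in 1.44% of all genes. The log2 fold changes, second against first, were -0.08 for *Tyrp1*, -0.32 for *Dct*, -0.37 for *Mitf* and 0.30 for *Ttr*, with standard errors of 0.57, 0.55, 0.25 and 0.54 and adjusted p-values of 1. *Mitf* was higher in the first library in all 3 pairs at 5 mM, with ratios of first to second of 1.93, 1.52 and 2.15, and in 1 of 3 at 25 mM. At 5 mM alone its log2 fold change was -0.89 (SE 0.22, unadjusted p = 0.0057, edgeR adjusted p = 0.172), and at 25 mM alone 0.20 (adjusted p = 0.871). The *Dct* pairs went both ways. *Dct* was 7.67 times higher in the first library of 5 mM replicate 3, while in 5 mM replicate 1 it was higher in the second, with a ratio of first to second of 0.285.

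For each pair, the share of a gene's counts in the first library was compared with the first library's share of all counts, with exact 95% binomial intervals that cover counting error only. In 5 mM replicate 3 the first library held 48.5% of all counts. It held 95.7% of *Tyr* (interval 78.1% to 99.9%), 87.8% of *Dct* (82.1% to 92.2%), 80.0% of *Tyrp1* (65.4% to 90.4%) and 85.7% of *Oca2* (57.2% to 98.2%). *Ttr* went the other way there, with 28.6% (20.2% to 38.2%). The remaining melanosome genes did not share the excess beyond counting error. The first library held 42.9% of *Pmel* (9.90% to 81.6%), 75.0% of *Mlana* (19.4% to 99.4%) and 0% of *Slc45a2* (0% to 70.8%). These intervals are wide because the counts were few, and all took in 48.5%. Of the 7 genes tested for glucose, the interval missed the share of all counts for 6 in this replicate, where it missed it for 55.1% of all genes tested. It missed it for 3 and 1 of the 7 in the other pairs at 5 mM and for 3, 2 and 1 at 25 mM glucose, and for 51.7% to 64.1% of all genes in these 5 pairs. Missing a counting interval was thus common among all genes. The interval is narrower for genes with more counts, and these shares of all genes were not matched for count. By gene, *Ttr* and *Mitf* each missed it in 4 of the 6 pairs, *Dct* in 3 and *Tyrp1* in 2.

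Summed over the 7 melanin and melanosome genes, the level ran from 1.70 to 10.4 CPM (median 3.77) in the 5 mM libraries and from 2.11 to 3.70 CPM (median 3.05) in those at 25 mM. The spread at 5 mM thus took in the whole range at 25 mM, and both its ends were libraries of replicate 3. Without *Dct* the sums were 0.793 to 3.40 and 0.657 to 1.38 CPM.

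Other genes of pigment cells and of the tissues around the retina were read in the same fit. Of 12 other melanosome genes, 11 were tested and 0 called, with log2 fold changes from -3.28 for *Gpr143*, a receptor of the melanosome membrane (adjusted p = 0.0602), to 0.81 for *Rab27a*, a small GTPase of melanosome transport that other cells also use (adjusted p = 0.102). Among 5 melanocyte genes, with sums of 409 to 815 CPM at 5 mM and 101 to 528 CPM at 25 mM, 4 were tested and 0 called, the lowest being *Kit* at -2.15 (adjusted p = 0.0707) and the highest *Mc1r* at 0.63. The sums are almost wholly *Ednrb*, which Mueller glia also express (mean 467 CPM at 5 mM and 273 at 25 mM), and *Kit* (182 and 41.0 CPM), which is not particular to melanocytes. *Sox10*, a defining factor of neural crest melanocytes, was at 0 in 10 of the 12 libraries. The MITF relatives *Tfeb*, *Tfe3* and *Tfec* had log2 fold changes of -0.57, -0.92 and -1.004, and 0 of the 3 were called.

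Of 19 other RPE genes, 16 were tested and 0 called, 9 of them with a log2 fold change below 0 (median -0.23). They ran from *Kcnj13*, a potassium channel of the apical RPE membrane, at -3.08 (adjusted p = 0.0516) to *Rgr*, a retinal-binding opsin that Mueller glia also express, at 1.41 (adjusted p = 0.103). The defining gene *Rpe65* was at 0 in 7 libraries and reached 0.238 CPM at most, in a library at 25 mM. The sum of the 19 genes, several of which Mueller glia express, lay between 543 and 1135 CPM at 5 mM and between 673 and 898 CPM at 25 mM.

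Markers of other tissues in or near the retina were read in the same way. The median over the 4 ciliary body genes was -1.62, with 0 called, and their sum was 42.0 to 112 CPM at 5 mM and 5.14 to 44.3 CPM at 25 mM. Their extremes were *Otx1* at -2.21 (adjusted p = 0.0556) and *Wnt2b* at 1.02 (adjusted p = 0.197). All 7 endothelial genes were tested, and *Plvap*, of fenestrated vessels such as those of the choroid, was called lower (log2 fold change -2.35, adjusted p = 0.0494), as were 0.513% of all genes. *Tie1* was lowest at -2.67 (adjusted p = 0.0673), *Kdr* highest at -0.03, and the sum was 449 to 2043 CPM at 5 mM and 259 to 849 CPM at 25 mM. Vessels of the retina and of the choroid were not told apart in this sum. *Plvap* had a mean of only 9.89 CPM at 5 mM and 1.93 CPM at 25 mM. Of 6 fibroblast and sclera genes, *Col3a1*, a fibrillar collagen, was called lower (-2.36, adjusted p = 0.0326), with *Pdgfra* highest at -0.72 and sums of 107 to 272 and 25.3 to 181 CPM. The part of this in the values of the pigment genes was not tested.

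Of the 6 microglial and macrophage genes, 0 were called (median log2 fold change -0.86), from *C1qa* at -1.22 to *P2ry12* at -0.25. The rod genes *Pde6a*, *Pde6b*, *Nrl*, *Nr2e3*, *Cnga1* and *Rp1* were called higher, at log2 fold changes of 0.99 for *Nr2e3* to 3.44 for *Rp1*, and *Gnat1* was at 0.45 (adjusted p = 0.308). Of all genes, 1.47% were called higher. CPM are shares of a library, and the part of the higher rod genes in the values of the pigment genes was not tested. The 5 Mueller glia genes had 0 called, with *Vim* at -1.51 (adjusted p = 0.0555) and *Slc1a3* at 0.35.

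Genes with a similar pattern over the 12 libraries were found by the root mean square difference of centred log2 CPM among 18247 genes with a symbol. Nearest to the sum of the 7 melanin and melanosome genes were *Poln* (0.298), *Npnt* (0.412), *Scd4* (0.418), *Pappa2* (0.420) and *Gm10988* (0.428), where the median gene differed by 0.85. For *Ttr* they were *Gprc5c* (0.362), *Ifi30*, *Lrrfip1*, *Gsta4* and *Oas1a* (0.378), with a median of 1.01. For *Best1* they were *Ssna1* (0.276), *Limk1*, *Cenpx*, *Nubp1* and *Arfgap3* (0.302), with a median of 0.746. A gene with no change over the libraries would differ by the root mean square of the pattern itself. This was 0.691 for the melanin and melanosome sum, 0.920 for *Ttr* and 0.583 for *Best1*, in each case less than the median gene. These likenesses are descriptions over 12 libraries that are technical replicates in pairs. None of the nearest genes is in the marker lists above.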

How the data were processed

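RNA of 12 retinal explant libraries was sequenced in read pairs after a strand-keeping kit for small amounts of total RNA. The authors deposited estimated counts (expected counts, which divide reads between transcripts and need not be whole) per gene and per transcript for each library, not normalized between libraries. The build per the labels was GRCm38, and the counting tool is not given in the sources used here. The table held 53707 genes and 146263 transcripts, and 0 columns were left unused. Symbols came from the table of gene names, and positions and transcript types from GENCODE M21.

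Technical replicates were summed and the sums rounded, since the design spoke of counts and the values are expected counts. Genes were filtered with filterByExpr, scaled by TMM and tested with the quasi-likelihood test of edgeR 4.0.16 (its version 3 form) under R 4.3.3, with Benjamini-Hochberg adjustment over all genes tested. The technical replicate and interaction terms were fitted on 12 libraries with biological replicate as a block. TMM factors enter the CPM, whose logarithm used 2 as prior count. Scripts were checked on simulated counts with known changes, drawn independently for each library with the same small spread for every gene. That checks the scripts and not how the tests perform at the spread of these genes. With the study's thresholds (FDR below 0.01, more than 2-fold), 0 genes were called. Group was taken from the sample labels.

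The genes and marker lists were chosen with earlier results of these data known. All 10 genes are named, with every called gene and both extremes of each marker list and the 5 genes nearest in pattern. *Sox10*, *Rpe65*, *Tfe3* and *Glul* were named in addition after their values were seen. Alternatives were other size factors, filters, tests, thresholds, each batch, the 12 libraries apart, a replicate block, transcript sums and each replicate left out. Coding transcripts alone and 3 runs with 1 library less were added after seeing the data. DESeq2 was version 1.42.0, limma 3.58.1, Python 3.11.15, scipy 1.17.1 and matplotlib 3.10.9. Some values of the rod gene list are not reported here.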

Additional observations from a re-analysis of the deposited data

Results flagged for a closer look

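In each gene the 6 libraries of a glucose concentration were searched for a library far from the others by Dixon's ratio at the 95% level. Of the 20 groups, 3 held one, where chance gives about 1 if libraries are independent, which technical replicates of 3 samples are not. At 5 mM glucose, *Pmel* had 1.19 CPM in the first library of replicate 2, against 0.144 to 0.357 CPM in the others. *Oca2* had 0.540 CPM in the first library of replicate 3, against 0.0822 to 0.212 CPM. *Best1* had 0.201 CPM in the second library of replicate 1, against 0.467 to 0.590 CPM. These values rest on estimated counts of 29.9, 12.2 and 4.74, and why these libraries differ was not tested.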

How the results depend on the processing

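Of the genes tested, those called for glucose numbered 0 of 7 in the pigment set, 2 with DESeq2 (*Tyrp1*, adjusted p = 0.0176, and *Mitf*, 0.0426), 1 with no filter on low counts (*Tyrp1*, 0.0428), 1 with the 12 libraries apart and a batch term (*Tyrp1*, 0.0430) and 1 in batch 1 alone (*Mitf*, 0.0269). Leaving out each biological replicate called 0 to 0 of them. Over all genes the count was 417, and 3489 with DESeq2, 1979 with no filter, 2918 with the 12 libraries apart, 3279 in batch 1 and 0 in batch 2. The fit of 12 libraries treats technical replicates as separate samples, so its p-values are too small. The count ran from 0 to 5845 as each replicate was left out, and was 54 from protein-coding transcripts, 0 without the first library of 25 mM replicate 2, 1731 without the second of 5 mM replicate 1 and 221 without the first of 5 mM replicate 3. With a replicate block it was 990, and 0 of the pigment set were called. Whether same-numbered replicates are paired is not stated. Their deviations correlated at 0.0175, -0.591 and 0.394, which are too few values to decide it. For technical replicates, 1 gene was called with DESeq2 and 1 with no filter, against 0.

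The log2 fold change of *Tyr* for glucose turned to 0.34 in batch 2, 0.27 from transcript sums, 0.60 from protein-coding transcripts and 0.18 without the first library of 5 mM replicate 3. That of *Dct* turned to 0.0065 without the same library. For technical replicates, *Tyrp1* turned to 0.0023 with limma-voom and ran from -0.61 to 0.42 as replicates were left out, *Dct* from -0.75 to 0.16, and *Mitf* was -0.89 at 5 mM alone and turned to 0.20 at 25 mM alone. The causes were not tested. For glucose, *Tyrp1*, *Oca2*, *Ttr*, *Best1* and *Mitf* kept their direction in every alternative that tested them. Depth limits *Mlana*, *Slc45a2* and *Pmel*, which did not pass the filter. With no filter their log2 fold changes were -1.52, 0.25 and -1.68, and 0 of the 3 were called.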
